A study of Rattus norvegicus with 24 samples.

Results

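The genes described here are the nuclear-encoded subunits of the mitochondrial respiratory chain and ATP synthase in PC12, a cell line from a rat adrenal medullary tumour (pheochromocytoma). They were taken by symbol: names that begin with Nduf (without the Ndufaf assembly factors), Uqcr, Cox4i, Cox5, Cox6, Cox7, Cox8 or Atp5 (without Atp5s and Atp5sl), with Sdha to Sdhd and Cyc1. Of 17055 genes listed, 79 had such a symbol, and 74 of these had 10 or more counts in at least 3 libraries and were kept, as 10026 of all genes would have been. The 74 members are 35 of complex I, 4 of complex II, 8 of complex III, 12 of complex IV and 15 of complex V. Ndufa10l1, Cox6b2, Cox6c-ps1, Cox8b and Cox8c fell under the count rule. Membership rests on symbol and this count rule. Cox6a2 passed the rule only through libraries labelled vector 24 h and 10 d, so a lower value in α1ACT at those times was set by the rule; counts that hold a call of Cox6a2 are also given without it.

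The respiratory chain passes electrons from NADH and succinate to oxygen. Complex I and complex II feed ubiquinone, complex III hands the electrons to cytochrome c, and complex IV reduces oxygen. Complexes I, III and IV move protons out of the mitochondrial matrix, and complex V, the ATP synthase, uses their return to make ATP. Most subunits are made from nuclear genes, while a small core of complexes I, III, IV and V is encoded in mitochondrial DNA, and chromaffin-derived cells use mitochondria both for ATP and to buffer calcium.

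Total RNA was sequenced from 2 stable PC12 lines, 1 that carries human α1ACT in pcDNA3 and 1 that carries the empty pcDNA3 vector. α1ACT is the C-terminal protein made from the second cistron of CACNA1A, the gene of the P/Q-type calcium channel pore. Cells of passages 18 to 20 grew in F-12K medium with horse and fetal bovine serum, no treatment is recorded, and each line was taken at 6 h, 24 h, 3 d and 10 d with 3 libraries per group, which the labels call biological replicates. With 1 line per construct, an effect of α1ACT cannot be told apart from other differences between the lines, and p-values measure the spread between libraries, which are not stated to be separate cultures. The labels and the names of the deposited files disagree for 18 of the 24 libraries, and for 12 they give another line, although replicate numbers match in all 24. In the titles, Q11 stands for the α1ACT line and P for the vector line. Groups here follow the labels of genotype and time, so "α1ACT" and "vector" mean the libraries labelled so. By the file names, the labelled α1ACT and vector libraries of 6 h are P at 24H and 6H, those of 24 h are P at 10D and 3D, those of 3 d are Q11 at 24H and 6H, and those of 10 d are Q11 at 10D and 3D. A difference labelled α1ACT against vector is therefore a difference of 2 times within 1 line if the file names are right.

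The libraries held 8679560 to 14486248 counts on genes. Levels are CPM, counts relative to all counts on genes of a library, after TMM scaling, and fold changes and adjusted p-values come from edgeR's quasi-likelihood test over all 9994 genes tested, with Benjamini-Hochberg adjustment and a threshold of 0.05. Of 10 markers of chromaffin and PC12 cells 9 were listed and all 9 were detected, and their summed level ran from 18861 to 28789 CPM. Markers of fibroblasts, immune cells and muscle summed to at most 7.34, 3.78 and 4.91 CPM in any library, with Col1a2, Lum, Ptprc and Aif1 at 0. Those of glia summed to 44.2 to 61.6 CPM with Sox10 at 0, and those of epithelia to 526 to 1848 CPM. Cacna1a, whose reads could come from the rat gene or from the construct, stood at 16.4 ± 1.57, 11.7 ± 1.38, 17.2 ± 1.69 and 13.4 ± 0.240 CPM in α1ACT libraries at 6 h, 24 h, 3 d and 10 d, against 14.8 ± 0.579, 16.9 ± 1.58, 13.2 ± 0.338 and 17.2 ± 3.25 CPM in vector libraries (SD, n = 3 each), so it did not separate the lines in 1 direction.

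The members together held 1.47% to 1.95% of the scaled counts of a library, with a median of 1.72%. Members that passed the test at the labelled 24 h and 10 d were mostly higher in α1ACT, and few members passed at 6 h and 3 d. At 6 h, 5 of 74 members were higher in α1ACT than in vector libraries and 6 were lower, beside 20.5% higher and 21.2% lower of all genes tested. At 24 h, 39 members were higher and 5 were lower, or 4 without Cox6a2, where 26.6% of all genes were higher and 28.8% lower. The 59.5% of members that passed in either direction at 24 h were thus near the share of all genes, and the direction set them apart. At 3 d the counts were 7 higher and 5 lower, beside 19.9% and 19.4%. At 10 d, 50 members were higher and 3 were lower, or 2 without Cox6a2, where 29.5% of all genes were higher and 29.4% lower. The median log2 fold change of the members was 0.00 at 6 h, 0.17 at 24 h, 0.03 at 3 d and 0.25 at 10 d, against -0.02 at 24 h and 0.01 at 10 d over all genes. Vector 10 d replicate 2 stood apart within its group, with chi-square over its degrees of freedom of 11.3 and 7.36 against the other libraries of that group, which gave 3.13 with each other, and without it 48 members passed the test at 10 d instead of 53. In bulk RNA, fewer cells of a type and less RNA per cell cannot be told apart, and CPM values are shares of each library, not amounts per cell.

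Of the members higher at 24 h, 38 were also higher at 10 d, which is 97.4% of the 39 and 76% of the 50. Over all genes tested, the genes higher at both times were 84.7% of those higher at 24 h and 76.4% of those higher at 10 d. Ndufv3 and Uqcrq were lower at both, as was Cox6a2 by the way it was chosen, 18 members passed the test at neither, and no member was called in opposite directions at the 2 times. For the calls at neither time and in opposite directions, the shares of all genes are not given. The highest group mean was that of α1ACT 10 d for 38 members, which is 51.4%, beside 15.3% of all genes tested. The lowest was that of vector 10 d for 41 members, 55.4%, beside 20.2% of all genes, and that of vector 24 h for 8, 10.8%, beside 10.9%. Leaving out Cox6a2, the highest group mean of a member was 1.12 to 3.71 times its lowest, with a median of 1.30. For 21 members that ratio was 1.5 or more.

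**Figure D1:**
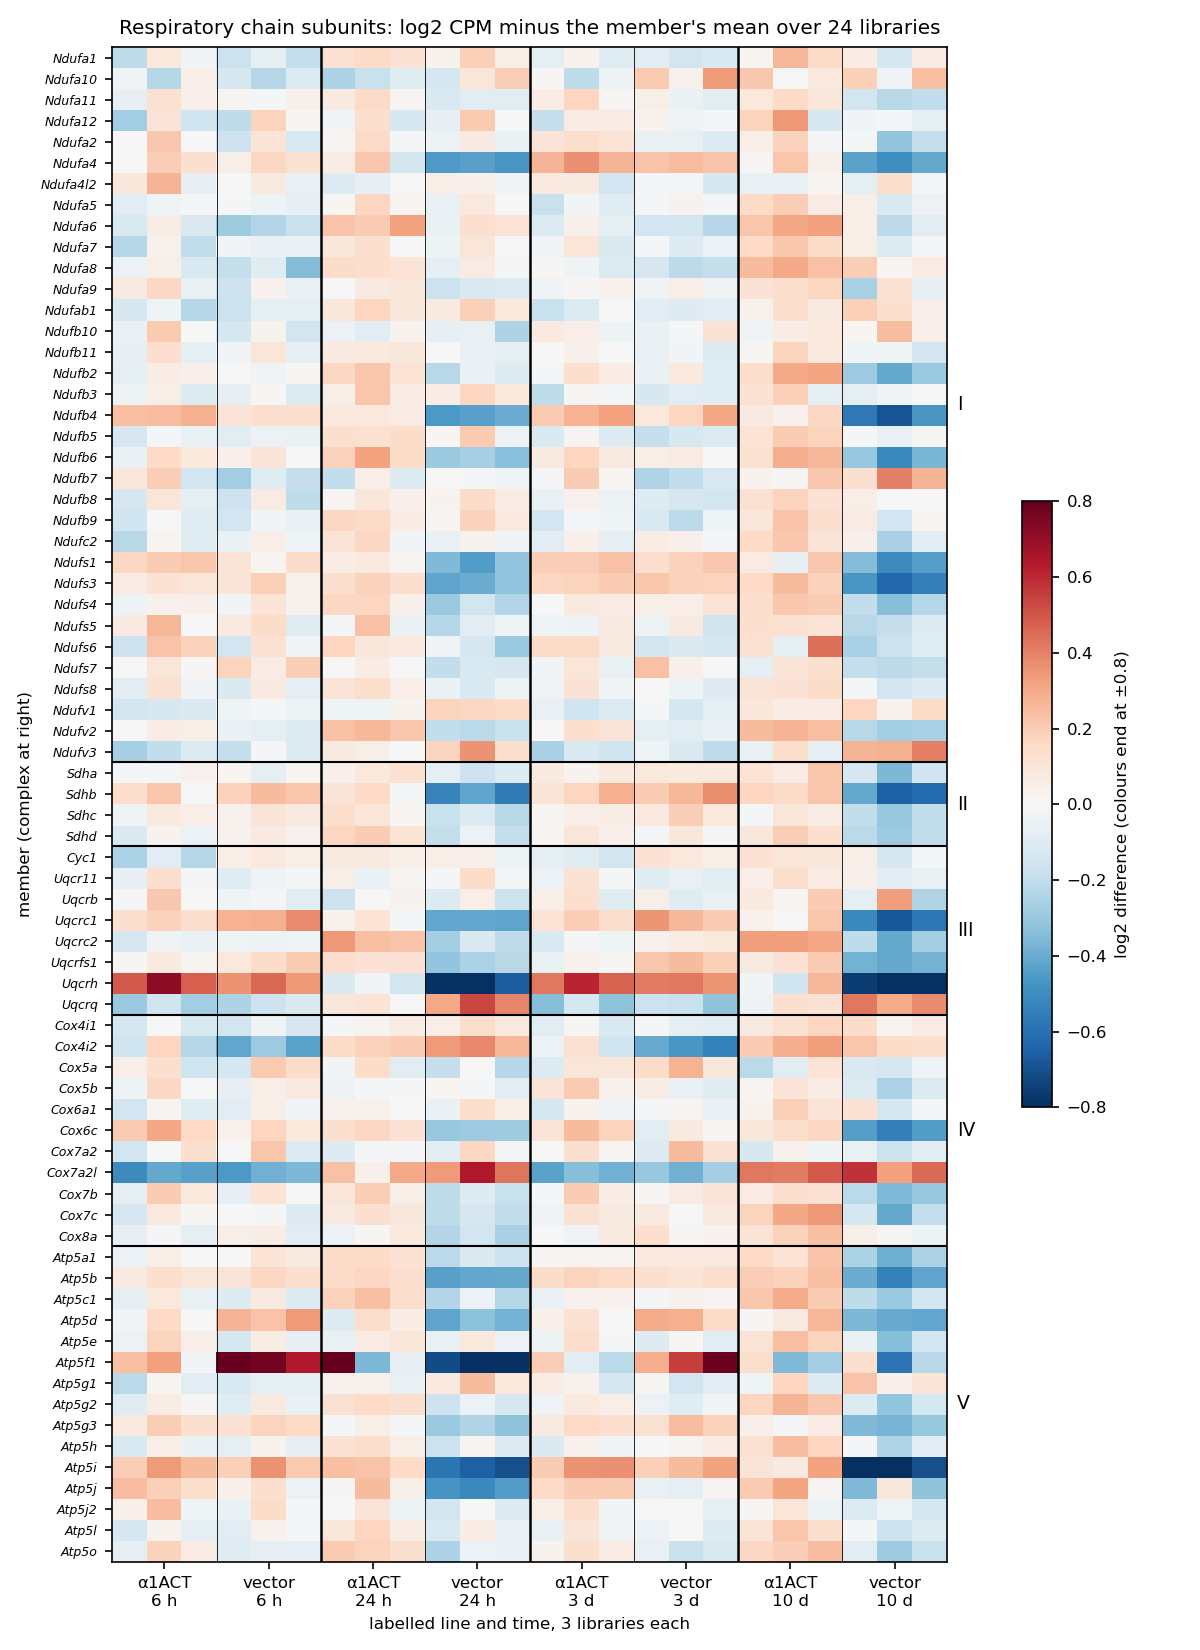
Log2 level of each member reported here except Cox6a2 in each of the 24 libraries, relative to the member's mean over libraries (colours end at ±0.8), with members sorted by complex and libraries by labelled group. The vector 24 h and 10 d columns are the low ones for much of complexes II, III and V, and a few members such as Uqcrq run the other way.

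Sums of several marker lists also differed between the lines at 24 h and 10 d, and the share of reads outside genes was higher in α1ACT at every labelled time. The summed chromaffin and PC12 markers ran from 24797 to 28789 CPM in α1ACT 24 h libraries, against 20299 to 21609 CPM in vector 24 h libraries, and from 27136 to 28775 CPM in α1ACT 10 d libraries, against 18861 to 20134 CPM in vector 10 d libraries. Epithelial markers, all 5 detected, summed to 687 to 709 CPM in α1ACT 24 h libraries, against 526 to 554 CPM in vector 24 h libraries, and to 719 to 776 CPM in α1ACT 10 d libraries, against 540.1 to 556 CPM in vector 10 d libraries. Glial markers, 2 of 6 with 10 counts in 3 libraries, were lower without overlap, at 46.9 to 49.9 CPM in α1ACT 24 h libraries against 59.0 to 61.6 CPM in vector 24 h libraries, and at 44.2 to 46.4 CPM in α1ACT 10 d libraries against 53.5 to 55.5 CPM in vector 10 d libraries. Immune markers summed to 1.503 to 1.91 CPM in α1ACT 10 d libraries, against 3.10 to 3.78 CPM in vector 10 d libraries, and their 24 h ranges overlapped. Fibroblast markers, of which only Dcn of 6 had 10 counts in 3 libraries, summed to 1.38 to 2.11 CPM in α1ACT 10 d libraries, against 0.757 to 0.781 CPM in vector 10 d libraries, and to 6.73 to 7.34 CPM in α1ACT 6 h libraries, against 1.60 to 2.77 CPM in vector 6 h libraries, and overlapped at 24 h and 3 d. At 6 h and 3 d the epithelial sums ran the other way, with 963 to 1112 CPM in α1ACT 6 h libraries against 1530.4 to 1848 CPM in vector 6 h libraries, and 960.4 to 1203 CPM in α1ACT 3 d libraries against 1309 to 1777 CPM in vector 3 d libraries. Reads outside genes made up 51.6% in α1ACT 24 h libraries against 50.4% in vector 24 h libraries, and 52.5% in α1ACT 10 d libraries against 50.9% in vector 10 d libraries. The mean α1ACT share was also above that of vector at 6 h, with 49.6% against 48.7%, and at 3 d, with 49.9% against 48.8%. Alignments counted as not unique are given per 100 reads on genes, outside genes or ambiguous. They were 90.9 to 98.2 in α1ACT 24 h libraries, against 83.0 to 89.6 in vector 24 h libraries. At 10 d they were 95.5 to 103 in α1ACT, against 73.7 to 92.8 in vector libraries, and they overlapped at 6 h and 3 d. Counts on genes were 8679560 to 10038749 in α1ACT 10 d libraries, against 11929307 to 13178016 in vector 10 d libraries. The part of all these differences in the result was not tested.

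Summed by complex, the difference at 24 h and 10 d was widest for complex V and narrowest for complex IV. Complex V members summed to 6684 ± 122 CPM in α1ACT 24 h libraries, against 5242 ± 182 CPM in vector 24 h libraries (SD, n = 3 each), a ratio of 1.27. At 10 d the sums were 6919 ± 116 CPM in α1ACT and 5030.4 ± 253 CPM in vector libraries, a ratio of 1.38. The 4 subunits of complex II gave ratios of 1.21 at 24 h and 1.29 at 10 d, complex III gave 1.19 and 1.31, and complex I gave 1.12 and 1.19, with no overlap between the libraries of the lines in any of these. Complex IV gave 0.986 at 24 h, where the libraries overlapped, and 1.12 at 10 d, where they did not. At 6 h and 3 d the ratios of the 5 complexes lay between 0.930 and 1.09, those of complexes III and IV at 3 d, and the libraries did not overlap for these 2 or for complex II at 6 h. A few abundant members weigh most in such sums: without Cox4i2, the complex IV ratio was 1.03 at 24 h, 1.003 at 3 d and 1.14 at 10 d, and the libraries overlapped at 24 h and 3 d. In complex V, Atp5b alone had a mean of 2395 CPM in α1ACT 24 h libraries, against 1615 CPM in vector 24 h libraries. Its 10 d means were 2495 CPM in α1ACT and 1579 CPM in vector libraries. Without Atp5b, complex V would not rank widest at either time.

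**Figure D2:**
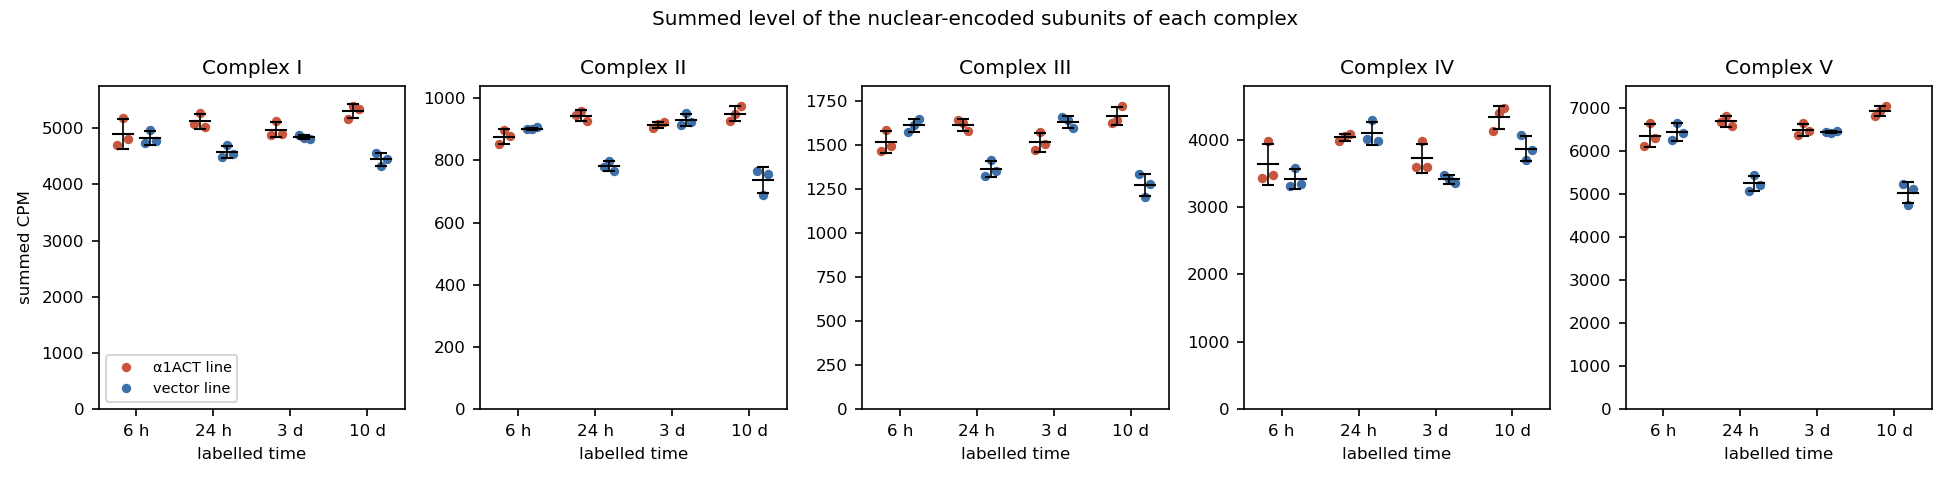
Summed CPM of the members of each complex by labelled group, with α1ACT left of vector at each time, points for libraries and bars for the mean and SD. For complexes I, II, III and V the vector libraries lie below the α1ACT libraries at 24 h and 10 d with no overlap.

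The start regions of 4 chosen members are given as examples and do not stand for all members. They are a member of complex III and one of complex V that were higher in α1ACT libraries, a member of complex III that was lower, and a member of complex IV that did not pass the test. Each window runs from 250 bases before to 50 bases after the annotated start, from RefSeq on the GRCr8 build, in the direction of transcription; the counts were made on another build, rn5. Capitals mark 5 motifs, each searched on both strands, so that the reverse complement is marked as well. The NRF-1 type motif is GCGCANGCGC. The core bound by ETS factors such as GABP is CCGGAAG, the CCAAT box is named by its letters, the GC box is GGGCGG and the YY1 core is AAGATGG, and none of these motifs overlap in the windows shown. The windows are at chr5:134790833-134791132 on the minus strand for Uqcrh, chr10:38089929-38090228 on the minus strand for Uqcrq, chr19:65630133-65630432 on the plus strand for Cox4i1 and chr14:1464610-1464909 on the plus strand for Atp5i, listed there as Atp5me.
Uqcrh: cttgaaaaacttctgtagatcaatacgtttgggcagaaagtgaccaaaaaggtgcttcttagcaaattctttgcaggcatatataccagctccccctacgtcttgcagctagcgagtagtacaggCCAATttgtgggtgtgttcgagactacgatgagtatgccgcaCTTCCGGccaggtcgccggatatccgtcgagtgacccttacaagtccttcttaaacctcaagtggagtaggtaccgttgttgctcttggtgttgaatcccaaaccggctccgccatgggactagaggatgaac
Uqcrq: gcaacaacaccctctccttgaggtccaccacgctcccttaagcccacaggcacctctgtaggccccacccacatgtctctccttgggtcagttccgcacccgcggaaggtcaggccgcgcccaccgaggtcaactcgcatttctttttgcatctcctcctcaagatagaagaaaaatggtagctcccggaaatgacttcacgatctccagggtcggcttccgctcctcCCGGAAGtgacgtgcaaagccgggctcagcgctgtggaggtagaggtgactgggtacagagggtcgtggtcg
Cox4i1: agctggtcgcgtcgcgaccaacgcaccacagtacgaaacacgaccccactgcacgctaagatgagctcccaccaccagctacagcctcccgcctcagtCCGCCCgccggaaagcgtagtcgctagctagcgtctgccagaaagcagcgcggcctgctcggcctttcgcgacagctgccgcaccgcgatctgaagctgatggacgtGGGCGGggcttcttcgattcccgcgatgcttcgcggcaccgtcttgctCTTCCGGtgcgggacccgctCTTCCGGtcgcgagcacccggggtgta
Atp5i: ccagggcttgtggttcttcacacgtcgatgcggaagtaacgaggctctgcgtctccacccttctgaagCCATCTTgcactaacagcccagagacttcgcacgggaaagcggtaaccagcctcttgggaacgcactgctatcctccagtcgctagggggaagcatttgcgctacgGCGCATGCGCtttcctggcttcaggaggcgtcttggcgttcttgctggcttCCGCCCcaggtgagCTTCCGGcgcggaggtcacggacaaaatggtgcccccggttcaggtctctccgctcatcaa

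Uqcrh, Uqcrq, Cox4i1 and Atp5i all hold the ETS core, although the first and the last were higher, Uqcrq was lower and Cox4i1 did not pass the test at 24 h and 10 d. Atp5i also holds the NRF-1 type motif, a GC box and the YY1 core. Windows were found for 64 of the 74 members and for 27457 genes in all. Among members 29.7% of windows held the ETS core, against 9.22% of all windows and 19.1% of those of tested genes. The NRF-1 type motif was in 21.9% of members' windows, against 4.71% and 10.9%, and the YY1 core in 26.6%, against 7.30% and 8.94%. The CCAAT box was in 29.7%, against 37.7% and 38.0%, and the GC box in 40.6%, against 34.9% and 65.8%. None of these motifs was found in 9 members' windows. A median of 57.0% of bases in members' windows were G or C, against 52.3% in all windows. A match is a string of letters and was not tied to any change.

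Complex I, which oxidises NADH, had 15 of 35 members higher and 2 lower in α1ACT at 24 h, and 24 higher and 1 lower at 10 d, beside 26.6% and 28.8% of all genes at 24 h and 29.5% and 29.4% at 10 d. The medians were 0.12 and 0.20 on the log2 scale. Ndufs3, a core subunit of the peripheral arm, had 141, 146 and 141 CPM in α1ACT 24 h libraries, against 96.3, 97.9 and 104 CPM in vector 24 h libraries. At 10 d it had 144, 153 and 147 CPM in α1ACT, against 93.2, 83.3 and 88.2 CPM in vector libraries. Every α1ACT library stood above every vector library at both times. The log2 fold change of Ndufs3 was 0.52 ± 0.05 (SE, edgeR adjusted p = 1.17e-09) at 24 h and 0.75 ± 0.05 (SE, edgeR adjusted p = 2.83e-12) at 10 d. Ndufs1, which carries iron-sulfur clusters, had log2 fold changes of 0.42 ± 0.06 and 0.51 ± 0.06 (SE) and passed the test at both times. Ndufs7 and Ndufs8, the iron-sulfur subunits that lead to the ubiquinone site, were higher by 0.18 and 0.17 at 24 h and by 0.25 and 0.21 at 10 d. Both 24 h calls were lost without α1ACT 24 h replicate 2 (edgeR adjusted p = 0.0694 for Ndufs7 and 0.0546 for Ndufs8), that of Ndufs7 also without vector 24 h replicate 1 (0.0685) and that of Ndufs8 without vector 24 h replicate 2 (0.0574).

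In the NADH-oxidising module of complex I, members passed the test in both directions. Ndufv2, an iron-sulfur subunit, had 208, 210.4 and 206 CPM in α1ACT 10 d libraries, against 149.5, 144 and 146 CPM in vector 10 d libraries, and log2 fold changes of 0.43 ± 0.04 (SE, edgeR adjusted p = 1.16e-09) at 24 h and 0.51 ± 0.04 (SE, edgeR adjusted p = 9.15e-11) at 10 d. Its partner Ndufv1, which binds NADH and the flavin, was lower at 24 h with -0.18 ± 0.04 (SE, edgeR adjusted p = 0.00114), and its 10 d value was -0.05 ± 0.04, which did not pass the test. Ndufv3, an accessory subunit of the same module, had 82.4, 94.5 and 81.8 CPM in α1ACT 10 d libraries, against 104, 104 and 113 CPM in vector 10 d libraries. It was lower in α1ACT, with -0.19 ± 0.07 (SE, edgeR adjusted p = 0.019) at 24 h and -0.31 ± 0.07 (SE, edgeR adjusted p = 0.000329) at 10 d on the log2 scale. The 24 h call of Ndufv3 was lost without vector 24 h replicate 2 (edgeR adjusted p = 0.143) and without α1ACT 24 h replicate 3 (0.0652). Among the accessory subunits of the membrane arm, Ndufb4 and Ndufb6 were higher by 0.51 and 0.52 at 24 h and by 0.66 and 0.62 at 10 d; these 2 were chosen after their values were seen. Ndufa4, counted here under complex I by its symbol although it is found in complex IV, was higher by 0.50 ± 0.07 and 0.54 ± 0.07 (SE), whereas its paralogue Ndufa4l2 had -0.08 ± 0.07 and -0.05 ± 0.07 and did not pass the test.

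Complex II, succinate dehydrogenase, which is also an enzyme of the citric acid cycle, has 4 subunits, and all 4 were higher in α1ACT at both 24 h and 10 d. Of all genes, 26.6% were higher and 28.8% lower at 24 h, and 29.5% and 29.4% at 10 d. Sdhb, the iron-sulfur subunit, had 72.0, 74.9 and 66.5 CPM in α1ACT 24 h libraries, against 46.4, 50.04 and 45.4 CPM in vector 24 h libraries. At 10 d, Sdhb had 75.5, 74.8 and 78.1 CPM in α1ACT and 50.5, 42.6 and 43.9 CPM in vector libraries. The libraries of the lines did not overlap at either time, and the log2 fold change was 0.59 ± 0.07 (SE, edgeR adjusted p = 9.07e-08) at 24 h and 0.74 ± 0.07 (SE, edgeR adjusted p = 2.62e-09) at 10 d. Sdha, the flavin subunit, was higher by 0.20 ± 0.05 and 0.35 ± 0.05 (SE). The membrane anchors Sdhc and Sdhd were higher by 0.26 and 0.30 at 24 h, and by 0.28 and 0.37 at 10 d. These 8 calls held without any 1 library.

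Complex III, which passes electrons from ubiquinol to cytochrome c, has 8 members here, which did not all move in 1 direction. Uqcrh, the hinge subunit that helps cytochrome c1 dock cytochrome c, had 65.2, 69.7 and 64.0 CPM in α1ACT 24 h libraries, against 39.5, 40.3 and 44.7 CPM in vector 24 h libraries. In the 10 d libraries it had 69.7, 63.2 and 84.6 CPM in α1ACT, against 41.8, 30.3 and 34.1 CPM in vector. Its log2 fold change was 0.67 ± 0.10 (SE, edgeR adjusted p = 2.19e-06) at 24 h and 1.03 ± 0.10 (SE, edgeR adjusted p = 3.07e-09) at 10 d, and the libraries did not overlap. At 6 h and 3 d, Uqcrh had 105 ± 10.0 CPM and 100.2 ± 6.84 CPM in α1ACT, against 92.6 ± 3.88 CPM and 93.1 ± 2.37 CPM in vector libraries (SD, n = 3 each), so both lines stood lower at 24 h and 10 d than at 6 h and 3 d. Uqcrq, a small accessory subunit, had 169, 172 and 159 CPM in α1ACT 24 h libraries, against 197, 231 and 209 CPM in vector 24 h libraries. At 10 d Uqcrq had 155, 174 and 172 CPM in α1ACT, against 213, 195 and 207 CPM in vector libraries. Here the α1ACT libraries were all below the vector libraries, with -0.34 ± 0.06 (SE, edgeR adjusted p = 6.6e-05) at 24 h and -0.30 ± 0.07 (SE, edgeR adjusted p = 0.000379) at 10 d. The core subunits Uqcrc1 and Uqcrc2 were higher by 0.46 and 0.47 at 24 h and by 0.68 and 0.62 at 10 d. Uqcrfs1, the Rieske iron-sulfur protein, was higher by 0.39 ± 0.04 and 0.52 ± 0.04 (SE). Cyc1, cytochrome c1, had 0.05 ± 0.05 at 24 h, which did not pass, and was higher at 10 d by 0.13 ± 0.05 (SE, edgeR adjusted p = 0.0171). That call was lost when the 6 libraries were fitted alone, without vector 10 d replicate 2 (edgeR adjusted p = 0.137) and without α1ACT 10 d replicate 1 (0.0501).

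Complex IV, cytochrome c oxidase, had 12 members. Without Cox6a2, 4 of 11 were higher and 1, Cox7a2l, lower at 24 h, and 5 were higher and none lower at 10 d, beside 26.6% and 28.8% of all genes at 24 h and 29.5% and 29.4% at 10 d, with medians of 0.01 and 0.12. Cox6c had 147, 153 and 155 CPM in α1ACT 10 d libraries, against 102, 94.8 and 102 CPM in vector 10 d libraries. Its log2 fold change was 0.43 ± 0.05 (SE, edgeR adjusted p = 1.25e-07) at 24 h and 0.61 ± 0.05 (SE, edgeR adjusted p = 4.21e-10) at 10 d, the largest rise in the complex at both times. Cox7b was higher by 0.27 ± 0.06 and 0.40 ± 0.06, and Cox8a, the ubiquitous isoform of the smallest subunit, by 0.23 ± 0.05 and 0.17 ± 0.05 (SE). Cox5a had 0.15 ± 0.09 and 0.03 ± 0.10 and passed the test at neither time. Cox5b, which binds zinc, was higher at 10 d by 0.22 ± 0.06 and had 0.01 ± 0.06 at 24 h. Cox4i1, the isoform of subunit IV found in most tissues, had -0.06 ± 0.05 and 0.05 ± 0.05 and did not pass. Cox6a1, the isoform of most tissues, had -0.02 ± 0.06 and 0.12 ± 0.06, and Cox7a2 had -0.06 ± 0.09 and 0.07 ± 0.09; neither passed.

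Cox6a2, the heart and skeletal muscle isoform of Cox6a1, was barely detected. Its 3 α1ACT 24 h libraries held 1, 1 and 0 counts, against 7, 11 and 7 counts in the vector 24 h libraries, a ratio of 0.0904 after allowing for depth (exact 95% interval 0.0104 to 0.362, counting error only). At 10 d the counts were 1, 4 and 1 in α1ACT and 15, 19 and 19 in vector libraries, a ratio of 0.152 (0.0534 to 0.353). In the libraries of 6 h and 3 d no library held more than 3 counts. Because Cox6a2 met the count rule only through the vector 24 h and 10 d libraries, it could only be kept by being higher there, and its lower values in α1ACT are a description. Muscle markers summed to 2.00 to 4.91 CPM over all libraries.

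Complex V, the ATP synthase, had 12 of 15 members higher and none lower at both 24 h and 10 d, beside 26.6% and 28.8% of all genes at 24 h and 29.5% and 29.4% at 10 d, with medians of 0.29 and 0.37. Atp5b, the catalytic beta subunit, had 2389, 2425 and 2372 CPM in α1ACT 24 h libraries, against 1598, 1622 and 1625 CPM in vector 24 h libraries. At 10 d, Atp5b had 2473, 2454 and 2557 CPM in α1ACT and 1641, 1482 and 1615 CPM in vector libraries. The libraries did not overlap, and the log2 fold change was 0.57 ± 0.04 (SE, edgeR adjusted p = 1.74e-11) at 24 h and 0.66 ± 0.04 (SE, edgeR adjusted p = 1.26e-12) at 10 d. Atp5i, subunit e, which helps ATP synthase form dimers, had 92.6, 91.8 and 87.6 CPM in α1ACT 24 h libraries, against 52.3, 49.9 and 48.2 CPM in vector 24 h libraries. It had 84.2, 82.4 and 98.0 CPM in α1ACT 10 d libraries, against 45.1, 40.5 and 48.1 CPM in vector 10 d libraries. For Atp5i the log2 fold change was 0.86 ± 0.07 (SE, edgeR adjusted p = 2.19e-10) at 24 h and 0.98 ± 0.07 (SE, edgeR adjusted p = 3.04e-11) at 10 d, the largest of complex V at 10 d. The alpha and gamma subunits of the catalytic head, Atp5a1 and Atp5c1, were higher by 0.30 and 0.36 at 24 h and by 0.46 and 0.46 at 10 d. Atp5d, the delta subunit of the central stalk, was higher by 0.41 ± 0.07 and 0.51 ± 0.07 (SE). Atp5j2, subunit f, had 0.10 and 0.11 and passed the test at neither time.

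Atp5f1, subunit b of the peripheral stalk, had the largest rise of complex V at 24 h but few counts, 19 to 120 per library. It had 10.1, 4.54 and 5.58 CPM in α1ACT 24 h libraries, against 3.55, 1.77 and 2.68 CPM in vector 24 h libraries, and 6.41, 4.55 and 4.81 CPM in α1ACT 10 d libraries, against 6.41, 3.87 and 4.99 CPM in vector 10 d libraries. The 24 h libraries did not overlap although they varied more than 2-fold within a line, and the 10 d libraries overlapped. Its log2 fold change was 1.31 ± 0.26 (SE, edgeR adjusted p = 0.000156) at 24 h and 0.05 ± 0.26 at 10 d.

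**Figure D3:**
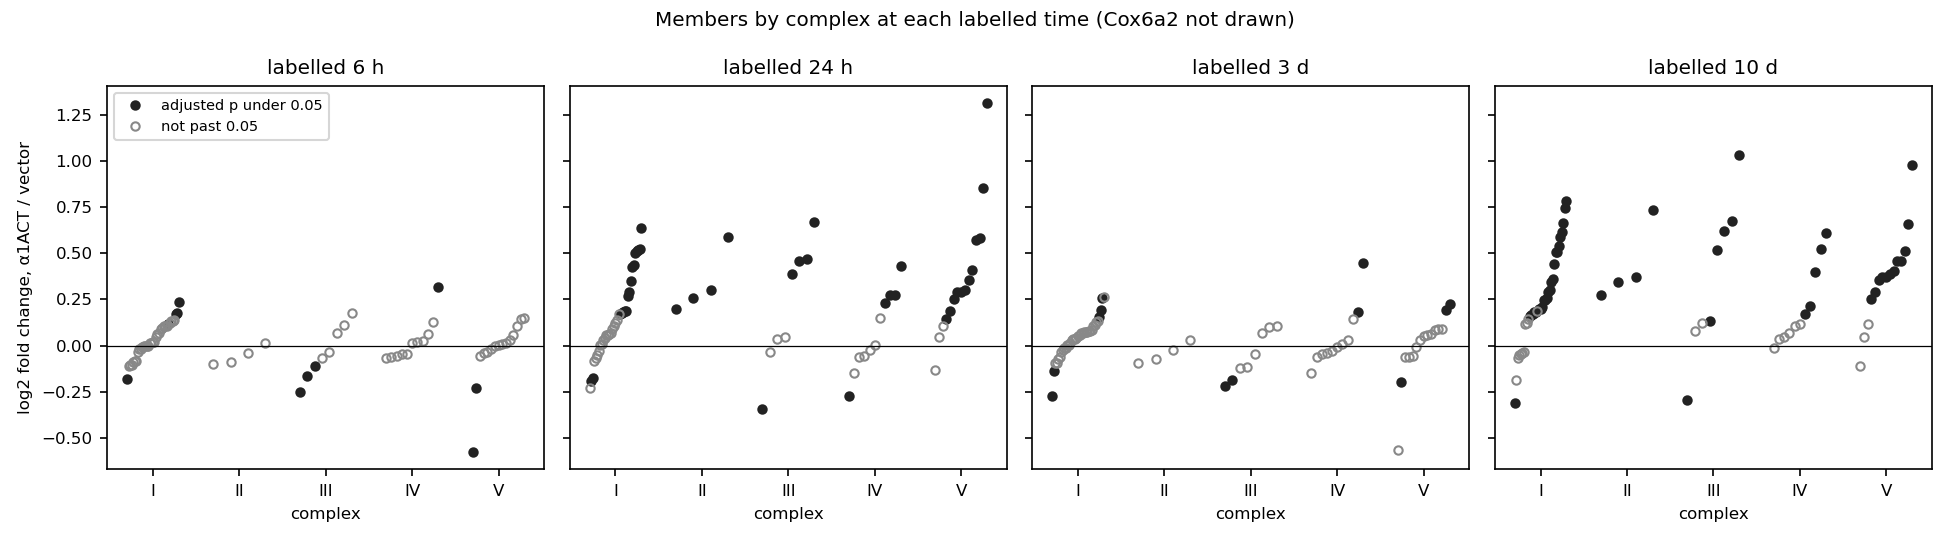
Log2 fold change of each member except Cox6a2 (not drawn), α1ACT over vector, at each labelled time, grouped by complex, with members past the adjusted p threshold filled. At 24 h and 10 d the points of complexes II and V lie mostly above 0, and at 6 h and 3 d they lie around 0.

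**Figure D4:**
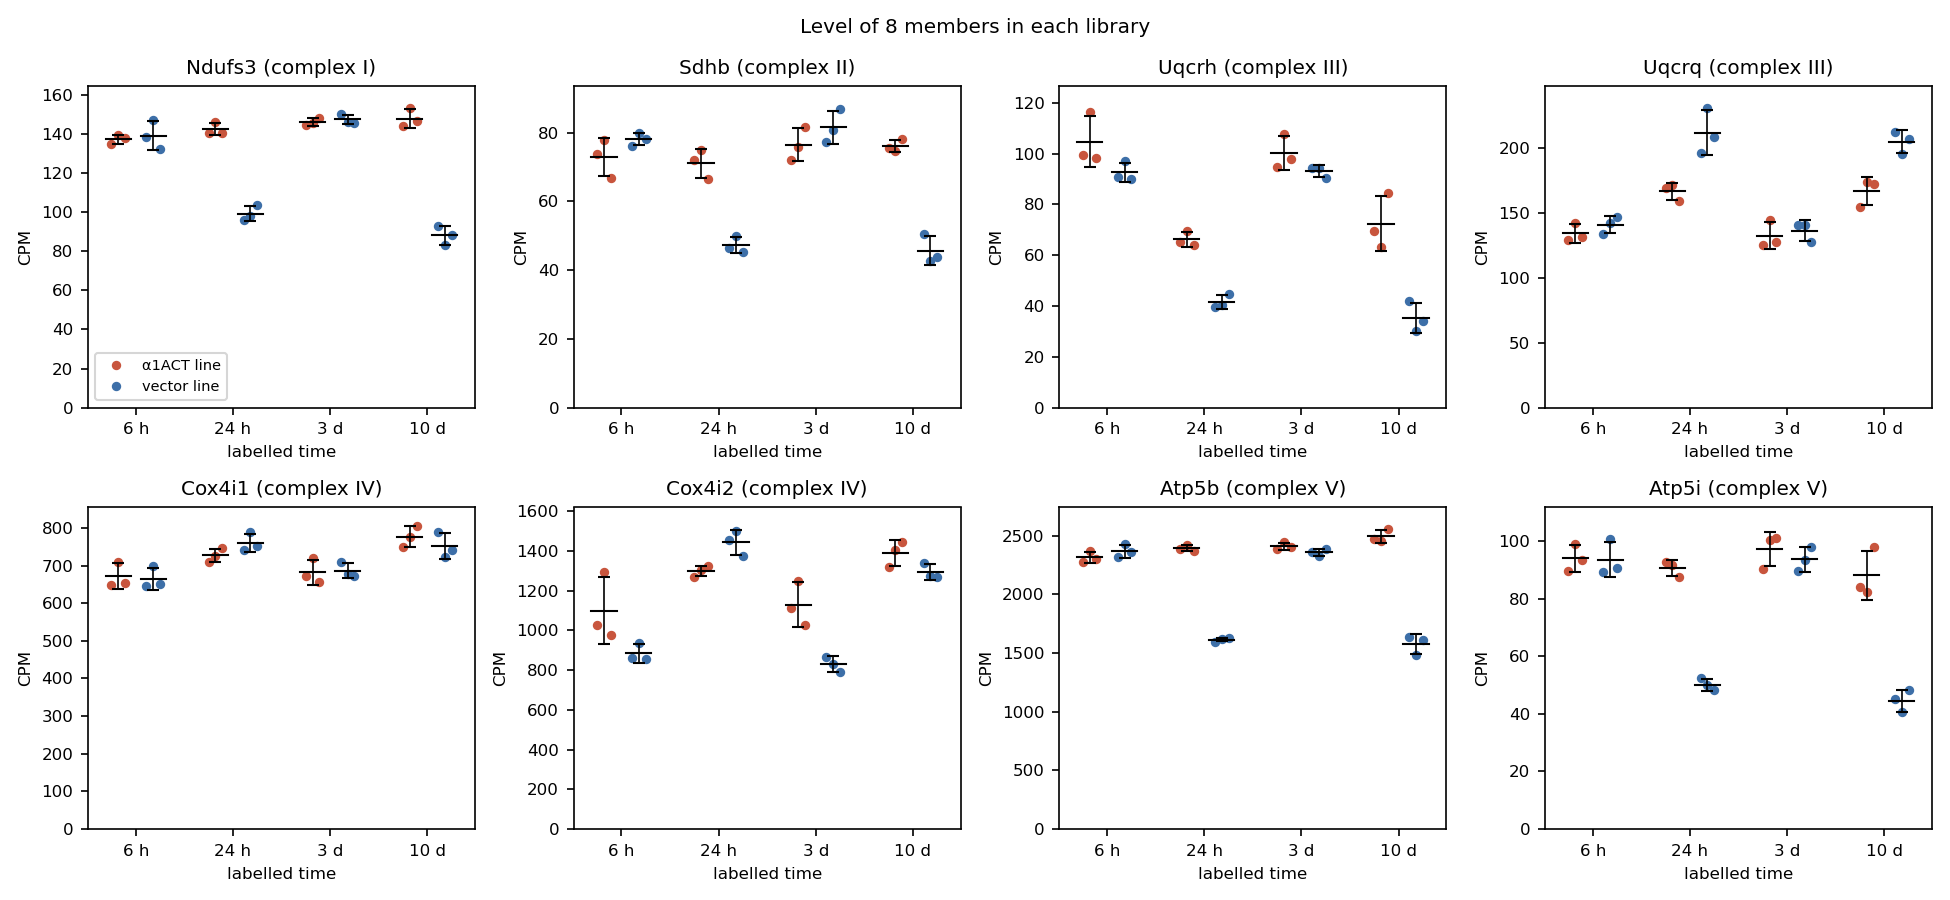
CPM of 8 members in each library by labelled group, with α1ACT left of vector at each time and the mean and SD drawn over the points. Ndufs3, Sdhb, Uqcrh, Atp5b and Atp5i are lowest in the vector 24 h and 10 d libraries, while Uqcrq is highest there.

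At 6 h and 3 d the lines differed in few members, below the shares of all genes. Complex II had no call at either time. Cox4i2, an isoform of subunit IV known from lung and from oxygen-dependent expression, had the largest rise that passed the test at both times. It had 1026, 1293 and 979 CPM in α1ACT 6 h libraries, against 859, 939 and 854 CPM in vector 6 h libraries. At 3 d Cox4i2 had 1110.4, 1249.9 and 1028 CPM in α1ACT, against 868, 830.1 and 788 CPM in vector libraries. The libraries did not overlap, and the log2 fold change was 0.31 ± 0.08 (SE, edgeR adjusted p = 0.00191) at 6 h and 0.45 ± 0.08 (SE, edgeR adjusted p = 5.7e-05) at 3 d. Cyc1 had the smallest adjusted p among the falls at 6 h, with 177, 199 and 181 CPM in α1ACT, against 219.9, 223 and 219.8 CPM in vector libraries. Its log2 fold change was -0.25 ± 0.05 (SE, edgeR adjusted p = 0.000143) at 6 h and -0.19 ± 0.05 (SE, edgeR adjusted p = 0.00258) at 3 d. Uqcrfs1 was lower, with -0.11 ± 0.04 and -0.22 ± 0.04, and so was Atp5d, with -0.23 ± 0.06 and -0.20 ± 0.06 (SE). Ndufv2 and Ndufb7, an accessory subunit of the membrane arm, were higher at both times, Ndufv2 by 0.12 and 0.15 and Ndufb7 by 0.24 and 0.26.

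Other calls of 6 h were higher Ndufa6 and Ndufa8 and lower Uqcrc1 and Atp5f1. Others of 3 d were higher Ndufa2, Cox6c, Atp5j and Atp5o and lower Ndufa10. Of the 6 h calls, Cyc1, Cox4i2 and Atp5d held without any 1 library, and the count of 11 came to 5 without vector 6 h replicate 3 and to 6 without α1ACT 6 h replicate 2. Of the 3 d calls, Cyc1, Cox4i2, Uqcrfs1 and Ndufv2 held, and the count of 12 came to 7 without vector 3 d replicate 2 and to 5 without α1ACT 3 d replicate 2. The split also turned on the scaling: with library sizes alone, 11 members were higher and 3 lower at 6 h, and 14 and 3 at 3 d, and with RLE size factors the splits were 5 and 7 at 6 h and 5 and 8 at 3 d. At 24 h and 10 d these settings gave 40 higher and 5 lower, and 50 higher and 3 or 4 lower.

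Members whose line difference depended on the labelled time were found by the interaction of line and time. It passed for 41 of 74 members, 55.4%, which is not above the 57.7% of all genes, and for 4 of 4 members in complex II, 12 of 15 in complex V, 6 of 8 in complex III, 14 of 35 in complex I and 5 of 12 in complex IV. Averaged over the 4 times, 47 members were higher in α1ACT and 6 were lower, beside 33.6% and 32.7% of all genes; the lower ones were Ndufv1, Ndufv3, Cyc1, Uqcrq, Cox7a2l and Cox6a2, the last by the way it was chosen.

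Comparing the labelled times within a line showed where the levels moved. These 4 comparisons share libraries with the line comparisons above and none with each other, and their values are given side by side. In α1ACT libraries, 23 members were higher and 4 lower at 24 h than at 6 h, beside 21.7% and 22.4% of all genes, and 30 were higher and 3 lower at 10 d than at 3 d, beside 21.8% and 22.8%. In vector libraries, 16 members were higher and 27 lower at 24 h than at 6 h, beside 31.6% and 29.9%, and 12 were higher and 32 lower at 10 d than at 3 d, beside 33.2% and 31%. Cox6a2 is one of the higher members in both vector counts, which are 15 and 11 without it. By the file names the α1ACT comparisons are P at 10D against 24H and Q11 at 10D against 24H, and the vector ones are P at 3D against 6H and Q11 at 3D against 6H. With library sizes alone, the α1ACT splits were 16 higher and 6 lower at 24 h and 21 higher and 6 lower at 10 d. The α1ACT count of 27 at 24 h came to 17 without α1ACT 6 h replicate 1, without α1ACT 6 h replicate 3 or without α1ACT 24 h replicate 1.

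Uqcrh was lower at the later time in both lines. In α1ACT libraries its log2 difference was -0.66 ± 0.09 at 24 h against 6 h and -0.47 ± 0.09 at 10 d against 3 d (SE), and in vector libraries it was -1.15 ± 0.10 (SE, edgeR adjusted p = 1.16e-10) and -1.39 ± 0.10 (SE, edgeR adjusted p = 4.36e-12). Ndufs3 had 0.05 ± 0.05 and 0.02 ± 0.05 in α1ACT libraries, which did not pass, and was lower in vector libraries, with -0.49 ± 0.05 and -0.74 ± 0.05. Sdhb gave -0.04 ± 0.07 and -0.01 ± 0.07 in α1ACT libraries, where it did not pass, against -0.73 ± 0.07 and -0.83 ± 0.07 in vector libraries. Atp5b gave 0.05 ± 0.04 and 0.05 ± 0.04 in α1ACT and -0.55 ± 0.04 and -0.58 ± 0.04 in vector libraries. Cox7a2l, a relative of Cox7a2 that takes part in joining complexes III and IV, was higher in both lines. It gave 0.65 ± 0.07 at 24 h and 0.83 ± 0.07 at 10 d in α1ACT, and 0.88 ± 0.07 and 0.78 ± 0.07 in vector libraries, and all 4 passed the test. Uqcrq was higher in both lines as well, by 0.31 ± 0.07 and 0.33 ± 0.07 in α1ACT and by 0.59 ± 0.07 and 0.59 ± 0.07 in vector libraries.

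By the file names, comparisons of 3 d with 6 h and of 10 d with 24 h within a label are Q11 against P at 1 time. Neither line had a member past the threshold between 3 d and 6 h by edgeR or by DESeq2, where 0.8% of all genes were higher and 0.26% lower in α1ACT libraries, and 1.14% and 0.33% in vector libraries. At an unadjusted p under 0.05, 1 member passed in each line. Between 10 d and 24 h, α1ACT libraries had 1 member higher at 10 d and none lower, beside 2.21% and 2.41% of all genes. That member was Cox7a2l, with 296, 295 and 311 CPM at 10 d, against 260.3, 228 and 273 CPM at 24 h, and 0.24 ± 0.07 (SE, edgeR adjusted p = 0.0416). Without any 1 of the 3 α1ACT 10 d libraries, or without α1ACT 24 h replicate 1 or 2, there were 0 calls, and without α1ACT 24 h replicate 3 there were 2. Vector libraries had 4 members higher at 10 d and 3 lower, beside 4.29% and 3.15% of all genes. Cox8a had the smallest adjusted p, with 155, 151 and 146 CPM at 10 d, against 127, 135 and 125 CPM at 24 h, and a log2 difference of 0.22 ± 0.05 (SE, edgeR adjusted p = 0.00866). The others were Ndufb7, Atp5f1 and Atp5j, which were higher, and Ndufb2, Ndufs3 and Cox6c, which were lower. None of the 7 was called in every fit that left out 1 library, and the count came to 3 without vector 24 h replicate 1, 3 without its replicate 2, 0 without its replicate 3, 2 without vector 10 d replicate 2 and 3 without vector 10 d replicate 3.

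The labelled 3 d and 10 d libraries together, against those of 6 h and 24 h, are by the file names the Q11 line against the P line. Ndufa10 and Cox8a were higher and Cox6c was lower, 3 of 74 members, beside 8.25% higher and 7.37% lower of all genes. Cox8a had a log2 difference of 0.13 ± 0.03 (SE, edgeR adjusted p = 0.00135), Ndufa10 0.17 ± 0.06 (SE, edgeR adjusted p = 0.0318) and Cox6c -0.08 ± 0.03 (SE, edgeR adjusted p = 0.0308). Of the 24 fits that left out 1 library, Ndufa10 was not called in 10 and Cox6c in 6. The count came to 1 without α1ACT 3 d replicate 1, 1 without α1ACT 10 d replicate 1 and 5 without vector 10 d replicate 2.

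Members with a close relative in the same complex were compared by their ratio within a library, which has no correction for length and is read only between groups. The Cox4i2 to Cox4i1 ratio was 1.63 ± 0.168 in α1ACT 6 h libraries, against 1.33 ± 0.0155 in vector 6 h libraries, and 1.65 ± 0.0842 in α1ACT 3 d libraries, against 1.21 ± 0.0296 in vector 3 d libraries (SD, n = 3 each). At 24 h and 10 d it was 1.79 ± 0.0109 and 1.79 ± 0.0249 in α1ACT, against 1.90 ± 0.0676 and 1.72 ± 0.0330 in vector libraries. The vector libraries of 6 h and 3 d were thus the low groups for this isoform. The Cox7a2l to Cox7a2 ratio at 6 h, 24 h, 3 d and 10 d was 3.38 ± 0.242, 5.41 ± 0.575, 3.40 ± 0.0775 and 6.42 ± 0.384 in α1ACT libraries, against 3.40 ± 0.419, 6.27 ± 0.102, 3.48 ± 0.517 and 6.77 ± 0.330 in vector libraries, so that in both lines the means of 24 h and 10 d lay above those of 6 h and 3 d. The Ndufa4l2 to Ndufa4 ratio was 1.60 ± 0.253 and 1.56 ± 0.146 in α1ACT at 24 h and 10 d, against 2.37 ± 0.0534 and 2.35 ± 0.256 in vector libraries.

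Atp5g1, Atp5g2 and Atp5g3 encode the same mature subunit c of the ATP synthase ring. Reads that aligned at several places were counted as not unique and on no gene, so reads in shared sequence could be missing from their counts. Of their summed CPM, Atp5g1 made up 26.0% ± 0.677 in α1ACT 24 h libraries, against 31.7% ± 0.740 in vector 24 h libraries, and 25.4% ± 1.90 in α1ACT 10 d libraries, against 32.5% ± 1.04 in vector 10 d libraries (SD, n = 3 each). In the 4 groups of 6 h and 3 d its mean share was between 24.8% and 25.6%. Atp5g2 and Atp5g3 were higher in α1ACT by 0.25 and 0.29 at 24 h and by 0.41 and 0.37 at 10 d. Atp5g1 had -0.13 ± 0.07 and -0.11 ± 0.07 and did not pass.

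**Figure D5:**
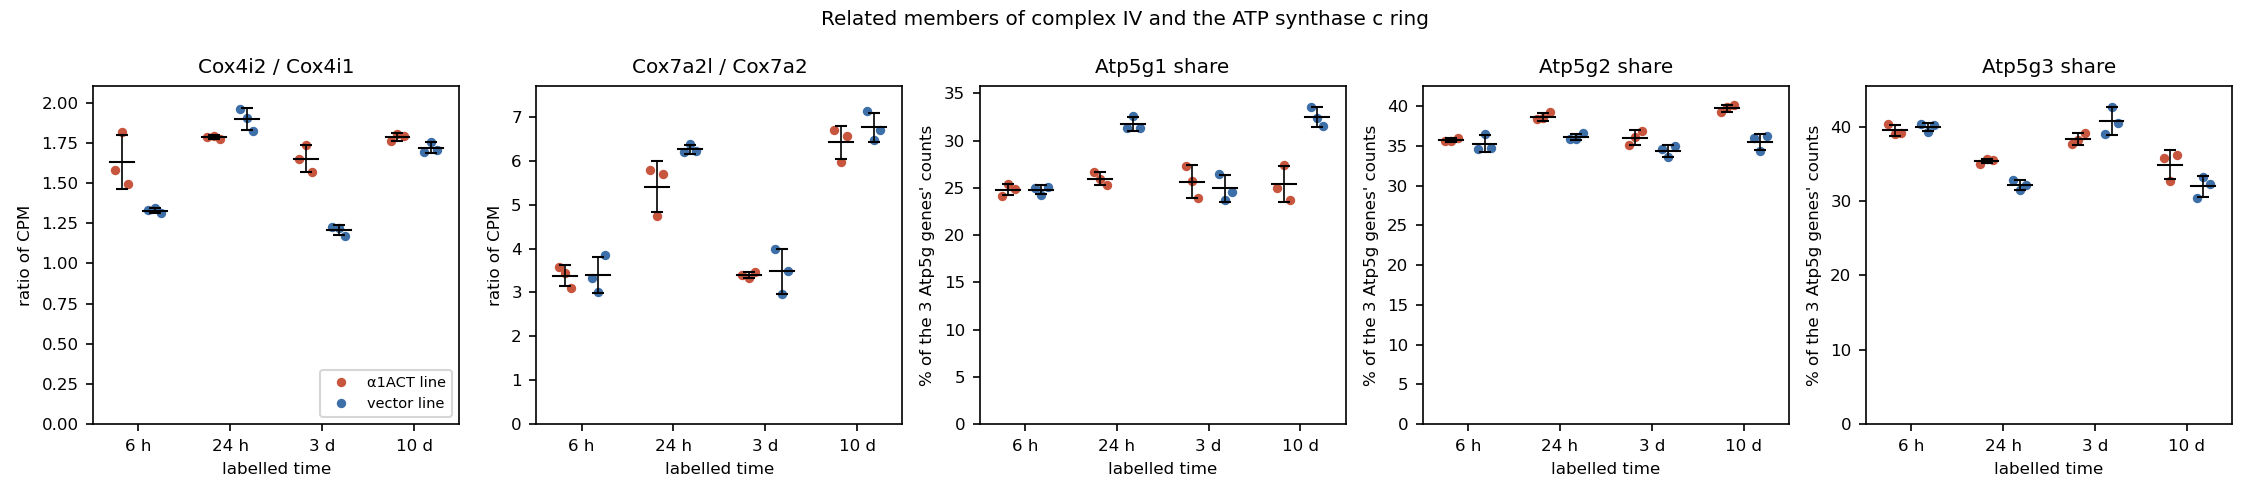
Ratios of Cox4i2 to Cox4i1 and of Cox7a2l to Cox7a2, and the shares of Atp5g1, Atp5g2 and Atp5g3 in their sum, in each library by labelled group, with α1ACT left of vector at each time. The Cox4i2 ratio is lowest in vector 6 h and 3 d libraries, and the Atp5g1 share is highest in vector 24 h and 10 d libraries.

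Genes that act around the respiratory chain were counted by lists, to be read beside all genes tested, of which 20.5% were higher and 21.2% lower at 6 h, 26.6% and 28.8% at 24 h, 19.9% and 19.4% at 3 d, and 29.5% and 29.4% at 10 d. Electron carriers and enzymes that feed ubiquinone had, of 18 tested, 4 higher and 2 lower in α1ACT at 6 h, 11 and 3 at 24 h, 3 and 6 at 3 d, and 11 and 3 at 10 d. Values are log2 fold changes unless CPM is given, and the largest rise or fall of a list is that among its genes that passed the test. Sqrdl, which oxidises sulfide into the ubiquinone pool, had 9.58, 7.82 and 9.88 CPM in α1ACT 24 h libraries, against 2.22, 1.77 and 2.88 CPM in vector 24 h libraries. Its log2 fold change was 1.96 ± 0.21 (SE, edgeR adjusted p = 2.07e-08) at 24 h and 1.85 ± 0.18 (SE, edgeR adjusted p = 3.62e-09) at 10 d. Gpd2, the mitochondrial glycerol-3-phosphate dehydrogenase, was lower at 24 h and 10 d, with -0.65 ± 0.07 and -0.69 ± 0.08 (SE). Cycs, cytochrome c itself, was lower at 6 h and 3 d and higher at 24 h and 10 d, with -0.22, 0.30, -0.37 and 0.47 at 6 h, 24 h, 3 d and 10 d, and its 6 h call was lost without vector 6 h replicate 2 and without α1ACT 6 h replicate 1. Higd1a had the same directions, with -0.31, 0.42, -0.21 and 0.43 at 6 h, 24 h, 3 d and 10 d, and the largest fall of the list at 6 h. Coq4, needed for ubiquinone synthesis, was higher at 6 h and 3 d and lower at 24 h and 10 d, with 0.24, -0.28, 0.33 and -0.22 at 6 h, 24 h, 3 d and 10 d; its 6 h call was lost without α1ACT 6 h replicate 1 and its 10 d call without α1ACT 10 d replicate 2. Aifm1 was the largest rise at 6 h, with 0.37.

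Of 9 carriers and porins of the mitochondrial membranes, none were higher and 2 lower at 6 h, 8 higher and none lower at 24 h, 1 higher and 2 lower at 3 d, and 8 higher and none lower at 10 d. Vdac2, a porin of the outer membrane, was lower at 6 h and 3 d and higher at 24 h and 10 d, with -0.24, 0.42, -0.26 and 0.56 at 6 h, 24 h, 3 d and 10 d. Slc25a1, the citrate carrier, was the largest rise at 10 d with 0.57 ± 0.07, and Ucp2 the 1 rise at 3 d with 0.16 ± 0.06. The Ucp2 call was lost with DESeq2, with RLE size factors, with no filter on low counts, and without any 1 of the 6 libraries other than vector 3 d replicate 2. Of 17 genes of the citric acid cycle and pyruvate dehydrogenase, 2 were higher and 7 lower at 6 h, 10 and 2 at 24 h, 2 and 5 at 3 d, and 10 and 6 at 10 d. Fh, fumarase, had -0.23, 0.94, -0.13 and 0.92 at 6 h, 24 h, 3 d and 10 d; it was higher at 24 h and 10 d (edgeR adjusted p = 3.91e-11 and 6.96e-11) and lower at 6 h, a call lost without vector 6 h replicate 3, and did not pass at 3 d. Idh2 was the largest rise that passed the test at 6 h and 3 d, with 0.27 and 0.30. Sucla2 was the largest fall at these times and was higher at 24 h and 10 d, with -0.25, 0.12, -0.24 and 0.16 at 6 h, 24 h, 3 d and 10 d; its 24 h call was lost without any 1 of 4 libraries (α1ACT replicates 1 and 2 and vector replicates 1 and 3) and its 10 d call without α1ACT 10 d replicate 2. Dlat was the largest fall at 24 h, with -0.26. Ogdh had 0.54, -0.19, 0.38 and -1.14 at 6 h, 24 h, 3 d and 10 d, of which only the 10 d value passed, although at 6 h and 3 d every α1ACT library stood above every vector library. The 10 d value rested on vector 10 d replicate 2: Ogdh had 39.4, 26.2 and 34.6 CPM in α1ACT, against 35.5, 145 and 42.5 CPM in vector libraries. Without that library the value was -0.22 and did not pass.

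Assembly factors, which build the complexes without staying in them, had 9 of 32 higher and 2 lower at 6 h, 11 and 2 at 24 h, 8 and 3 at 3 d, and 12 and 4 at 10 d. Nubpl, which puts iron-sulfur clusters into complex I, was the largest rise at 24 h and 10 d, with 0.56 ± 0.18 and 0.80 ± 0.18 (SE), and Cox19 the largest fall, with -0.40 ± 0.09 and -0.38 ± 0.09. Taco1, which activates the translation of a mitochondrially encoded subunit of complex IV, was the largest rise at 6 h and 3 d, with 0.50 ± 0.13 and 0.65 ± 0.13. Regulators of respiratory and mitochondrial genes had 4 of 16 higher and 5 lower at 6 h, 3 and 8 at 24 h, 6 and 5 at 3 d, and 3 and 8 at 10 d. Polrmt, the mitochondrial RNA polymerase, had 25.0, 23.8 and 26.4 CPM in α1ACT 24 h libraries, against 48.2, 47.3 and 47.5 CPM in vector 24 h libraries, and log2 fold changes of -0.93 ± 0.09 (SE, edgeR adjusted p = 3.97e-09) at 24 h and -0.81 ± 0.09 (SE, edgeR adjusted p = 4.86e-08) at 10 d. Tfam, which packages mitochondrial DNA, was lower at 6 h and 3 d and higher at 24 h and 10 d, with -0.17, 0.42, -0.16 and 0.41 at 6 h, 24 h, 3 d and 10 d; its 6 h call was lost without replicate 2 of either 6 h group, and its 3 d call without replicate 2 of either 3 d group. Tfb1m, which methylates mitochondrial ribosomal RNA, was the largest rise at 24 h with 0.43 ± 0.07. Ppargc1b, a coactivator of respiratory genes, was higher at 6 h and 3 d and lower at 24 h and 10 d, with 0.53, -0.84, 0.73 and -0.49 at 6 h, 24 h, 3 d and 10 d, and its 10 d call was lost without α1ACT 10 d replicate 2. Yy1 was the largest fall at 6 h and 3 d, with -0.35 ± 0.08 and -0.41 ± 0.08. Mitochondrially encoded subunits were not analysed here, as none of the symbols searched was among the genes listed. Of 2 subunits or inhibitors under other symbols, Atpif1, the inhibitor of ATP synthase, was lower at 24 h, with -0.16 ± 0.06, a call lost without vector 24 h replicate 2 and without α1ACT 24 h replicate 3.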

How the data were processed

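Total RNA of PC12 lines was made into stranded, ribosomal RNA-depleted libraries and read as pairs of 100 bases in 3 lanes, per the labels. The authors deposited raw counts per gene, 1 table per library. The submitters' processing notes name FastQC 0.11.2, TopHat2 2.0.10, Picard 1.117, HTSeq 0.5.4p5, edgeR and the rn5 build. For the counting, annotation and strand setting were not given in the sources used here, so reads of overlapping or antisense genes may be shared. Reads of near-identical copies may be missing where they aligned at several places. Each table ended in 5 summary lines, which were left out of library sizes. Reads outside genes were 47.8% to 52.9%, and ambiguous ones 0.159% to 0.242%, of reads on genes, outside genes or ambiguous. Alignments counted as not unique, which were counted on no gene, came to 73.7 to 103 per 100 of those reads.

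Counts were analysed in R 4.3.3 with edgeR 4.0.16 (filter by group with a minimum count of 10 and total of 15, TMM factors of 0.981 to 1.02, 1 coefficient per labelled group, 24 libraries in 1 fit, 16 residual degrees of freedom, quasi-likelihood F-test, Benjamini-Hochberg adjustment over 9994 genes, threshold 0.05). Between 8679560 and 14486248 counts on genes per library make 3 counts, the limit that a count of 0 allows, 0.207 to 0.346 CPM, for counting error only. No 2 libraries of a group were as close as sampling alone allows, and chi-square divided by its degrees of freedom ran from 1.98 to 11.3. Alternatives were RLE size factors, library sizes alone, no filter on low counts, DESeq2 1.42.0, the replicate number as a block, only the 6 libraries compared, and each library left out. Sums, ratios and intervals used Python 3.11.15, pandas 2.3.3, scipy 1.17.1 and matplotlib 3.10.9.

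The members and gene lists were chosen with earlier results of these data known, and the comparisons of 24 h with 6 h and of 10 d with 3 d within a line were added after the group levels had been seen. Genes named were mainly the core subunits, members with a relative in the same complex, and the called member with the largest rise and fall of each complex or list in a comparison. Atp5j2 and some called genes were named outside this rule, and Ndufb4 and Ndufb6 were chosen after their values were seen. 1 member that the rule would name is counted in the totals but not reported by itself here. For RefSeq symbols, 59 members matched by current symbol and 15 by synonym.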

Additional observations from a re-analysis of the deposited data

Results flagged for a closer look

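The line difference depended on the labelled time for 41 of 74 members by edgeR's interaction test with Benjamini-Hochberg adjustment, which is 55.4% and not above the 57.7% of all genes. Some members were higher in α1ACT than in vector libraries at 1 labelled time and lower at another, each past the threshold. The share of all genes called in both directions in this way is not given here, so these calls are a description. Uqcrfs1 was higher at 24 h and 10 d and lower at 6 h and 3 d, with an interaction adjusted p of 7.3e-11 (edgeR). The 6 h call of Uqcrfs1 was lost without any 1 of the 6 libraries other than vector 6 h replicate 1, with adjusted p-values of up to 0.255. Atp5d had the same pattern, with 3.13e-08, and its 3 d call was lost without vector 3 d replicate 1 (edgeR adjusted p = 0.0549), vector 3 d replicate 2 (0.0697) or α1ACT 3 d replicate 3 (0.0657). Uqcrc1 was higher at 24 h and 10 d and lower at 6 h, with 3.44e-10, and its 6 h call was lost without vector 6 h replicate 3 (edgeR adjusted p = 0.127) or α1ACT 6 h replicate 3 (0.0683). Cyc1 was higher at 10 d and lower at 6 h and 3 d, with 3.1e-05, and its 10 d call was lost without vector 10 d replicate 2 (edgeR adjusted p = 0.137) or α1ACT 10 d replicate 1 (0.0501). Atp5f1 was higher at 24 h and lower at 6 h, with 0.000129, and its 6 h call was lost without any 1 of the 6 libraries, with adjusted p-values of 0.051 to 0.147. If the file names are right, these are differences between pairs of times within a line and not between lines.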

How the results depend on the processing

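Counts of members past the threshold at 24 h and 10 d stayed within 1.5 times under every alternative run, with 39 to 43 at 24 h and 48 to 54 at 10 d when each library was left out. Leaving out each library gave 5 to 12 at 6 h, 5 to 10 at 3 d, 0 to 2 for α1ACT 10 d against 24 h, 0 to 9 for vector 10 d against 24 h, 1 to 5 for the labelled 3 d and 10 d against 6 h and 24 h, and 17 to 27 for α1ACT 24 h against 6 h. It gave 22 to 33 for α1ACT 10 d against 3 d, 39 to 41 for vector 24 h against 6 h, 39 to 47 for vector 10 d against 3 d, 51 to 56 for the average over times and 38 to 45 for the interaction. With only the 6 libraries compared, α1ACT 10 d against 24 h gave 0 and vector 10 d against 24 h gave 1, and the cause was not tested. The labels tie a replicate number to no shared batch, so the libraries were not treated as paired. Of 84 same-numbered pairs, 32 had a correlation of deviations above 0.1. As a hint from the data, 18 of 24 libraries were closest to their own number, with a median correlation of 0.092 between the same numbers against -0.061 between others. The replicate block gave 5 members for the labelled 3 d and 10 d against 6 h and 24 h, beside 3 without it, and moved no other count over 1.5 times. With the block, 48 members passed at 24 h instead of 44, and 49 instead of 43 for vector 24 h against 6 h, and no count fell. Of 426 calls of named genes, DESeq2 lost 12, RLE size factors 4, library sizes alone 28, no filter 18 and the block 0. Of the 388 that could be fitted with only the 6 libraries compared, 28 were lost, and none reversed in any of these. Of 128 member calls in the 4 comparisons of lines and the 4 of 3 d with 6 h and of 10 d with 24 h, 87 held without any 1 library. Low counts limited Cox6a2 and Atp5f1 most.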
